A study of Mus musculus with 6 samples.

Results

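Proteasome genes were taken from a map of accessible chromatin in R1 cells, a single wild-type mouse embryonic stem cell line, made with the ACC-seq assay (the transposase Tn5 inserts sequencing adapters where DNA is accessible). They are the 46 protein-coding genes whose symbol begins with Psma, Psmb, Psmc, Psmd or Psme and a digit, of 21887 protein-coding genes in all, and their chromatin is described by the regions whose midpoint lay within 2.5 kb of either annotated limit of the gene. The 6 libraries came from 3 groups of 2. Fix_1,6-Hex cells received 1,6-hexanediol at 10% (w/v) for 30 s before, and also throughout, fixation with 1% formaldehyde for 10 min. This small diol is used to disperse weakly held condensates of protein and RNA. Fix cells had the fixation alone, and Fresh cells had neither. Nuclei of the fixed groups were tagmented at 55 °C and those of Fresh cells at 37 °C, for 30 min in each group, so fixation and temperature changed together. All cells were wild type and grew on mouse embryonic fibroblast feeders in serum with LIF and 2i, and the feeders were taken off by replating. A single table serves all 6 libraries, with 69689 regions on mm10, each assigned to 1 of 9 clusters, and no value per library. Sequencing depth is therefore unknown, what accessibility pattern a cluster name stands for is unknown here, and neither Fix_1,6-Hex and Fix nor Fix and Fresh could be compared. The labelled cell type was checked at its markers: 7 of 7 embryonic stem cell genes had a region within 2.5 kb, but so did 5 of 6 feeder fibroblast genes, 2 of 3 trophoblast genes and 2 of 3 primitive endoderm genes, so a region by itself does not tell these cell types apart.

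The proteasome is the cell's main machine for breaking down proteins tagged with ubiquitin. Its core particle is a barrel of alpha rings, which gate the entry, and beta rings, some of whose subunits cut the protein chain. A regulatory particle sits on the ends of the barrel: its base holds a ring of ATPases that unfold the substrate, and its lid removes the ubiquitin. Other activators and variant core subunits replace these parts in immune tissues, the thymus and the testis. In human embryonic stem cells proteasome activity is known to be high. Here the core genes are Psma and Psmb, and the regulatory genes are Psmc, Psmd and Psme. Psmc3ip and Psme3ip1 match the symbols but encode proteins named for binding a subunit and are no subunits, which left 19 core and 25 regulatory genes.

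Nearly all proteasome genes had open chromatin at their start, most often in a region of cluster 8 or of clusters 2, 3 or 4, and the regions were of moderate width. A region was present at 45 of 46 members (97.8%, exact binomial 95% interval 88.5 to 99.9), against 69.7% of the other 21841 protein-coding genes. The exception was Psme2b, an additional Psme2-like gene (chr11:48945345-48946410), which had none. Reads may not be placed on such a copy with certainty, and this was not tested. In total 65 distinct regions lay at the members. Of the 39 members with an entry in the RefSeq promoter table, which gives the strand, 36 had their annotated start covered by a region (92.3%, 79.1 to 98.4), against 61.3% of the other 17453 genes with an entry. Where a strand was known, the region nearest to a limit lay on the start side in 38 of 38 members and in 87.9% of 12134 other genes. The intervals here and below cover counting error only. Since the members were chosen as a known family and genes are not replicates, shares are set beside those of other genes as a description, with no test, and nothing is called particular to the proteasome.

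The promoters that mark the extremes of this set are shown here, since the regions described below lie over them, at Psmb11 over a part only. The printed promoters run from 250 bases before to 50 bases after the start, on the strand of the gene (RefSeq, GRCm38.p6, the assembly of mm10). Capitals mark matches, on either strand, to any of 7 motifs searched: TGACNNNGC (the antioxidant response element, bound by NFE2L1, a known activator of proteasome genes, and NFE2L2), CCAAT (NF-Y), CCGGAAG (ETS factors), the motif of nuclear respiratory factor 1, GGGCGG (SP1), the motif of YY1 and TATAAA (the usual core of a TATA box). Among the core genes, the widest region over a promoter entry's start was at Psma7 (chr2:180042415-180042714, minus strand) and the narrowest at Psmb11 (chr14:54625060-54625359, plus strand). The CCAAT match of Psmb11 lies in the part of its promoter that the region does not cover.
Psma7: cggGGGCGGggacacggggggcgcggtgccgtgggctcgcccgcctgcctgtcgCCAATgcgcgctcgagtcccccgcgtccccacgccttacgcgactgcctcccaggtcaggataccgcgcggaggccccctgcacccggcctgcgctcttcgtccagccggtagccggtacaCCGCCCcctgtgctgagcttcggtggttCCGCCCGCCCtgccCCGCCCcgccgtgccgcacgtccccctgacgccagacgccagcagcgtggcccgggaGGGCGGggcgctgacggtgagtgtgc
Psmb11: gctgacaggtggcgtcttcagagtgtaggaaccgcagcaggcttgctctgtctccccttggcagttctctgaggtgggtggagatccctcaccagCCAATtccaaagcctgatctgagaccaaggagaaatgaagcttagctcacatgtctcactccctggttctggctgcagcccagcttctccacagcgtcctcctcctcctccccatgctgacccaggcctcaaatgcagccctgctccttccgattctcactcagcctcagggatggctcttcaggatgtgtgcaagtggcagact
Among the regulatory genes the widest was at Psmd1 (chr1:86064369-86064668, plus strand) and the narrowest at Psmd9 (chr5:123227940-123228239, plus strand).
Psmd1: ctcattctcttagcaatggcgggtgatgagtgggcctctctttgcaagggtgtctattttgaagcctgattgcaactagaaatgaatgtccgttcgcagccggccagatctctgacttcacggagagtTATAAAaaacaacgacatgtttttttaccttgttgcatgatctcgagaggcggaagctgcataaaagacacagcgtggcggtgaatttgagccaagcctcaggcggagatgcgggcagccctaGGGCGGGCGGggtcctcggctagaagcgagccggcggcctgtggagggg
Psmd9: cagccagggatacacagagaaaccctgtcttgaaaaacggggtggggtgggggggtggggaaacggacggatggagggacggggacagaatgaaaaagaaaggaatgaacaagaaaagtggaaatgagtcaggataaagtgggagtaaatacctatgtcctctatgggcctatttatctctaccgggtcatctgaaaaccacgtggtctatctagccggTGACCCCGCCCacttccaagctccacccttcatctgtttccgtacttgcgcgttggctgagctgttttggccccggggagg
The other 4 promoters hold an antioxidant response element together with the most kinds of motif, namely those of Psmb6 (chr11:70525107-70525406), Psmc6 (chr14:45329574-45329873), Psmd12 (chr11:107479278-107479577) and Psme4 (chr11:30771525-30771824), all on the plus strand.
Psmb6: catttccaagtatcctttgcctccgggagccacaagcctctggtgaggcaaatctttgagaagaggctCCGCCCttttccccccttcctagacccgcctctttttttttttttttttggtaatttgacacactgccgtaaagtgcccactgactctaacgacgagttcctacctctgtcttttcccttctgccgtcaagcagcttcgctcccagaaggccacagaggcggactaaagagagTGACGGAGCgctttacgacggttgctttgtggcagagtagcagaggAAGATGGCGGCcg
Psmc6: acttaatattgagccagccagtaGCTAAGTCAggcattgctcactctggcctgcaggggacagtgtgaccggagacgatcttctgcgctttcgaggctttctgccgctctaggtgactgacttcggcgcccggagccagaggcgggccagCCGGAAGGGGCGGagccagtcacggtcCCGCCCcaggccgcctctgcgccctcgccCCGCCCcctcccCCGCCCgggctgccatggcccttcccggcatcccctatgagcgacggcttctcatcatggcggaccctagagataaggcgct
Psmd12: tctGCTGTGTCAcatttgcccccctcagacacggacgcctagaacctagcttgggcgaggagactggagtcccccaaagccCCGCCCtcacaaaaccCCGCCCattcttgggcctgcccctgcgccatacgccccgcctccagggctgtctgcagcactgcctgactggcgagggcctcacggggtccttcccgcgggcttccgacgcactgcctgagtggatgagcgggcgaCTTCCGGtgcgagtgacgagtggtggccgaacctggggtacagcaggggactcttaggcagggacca
Psme4: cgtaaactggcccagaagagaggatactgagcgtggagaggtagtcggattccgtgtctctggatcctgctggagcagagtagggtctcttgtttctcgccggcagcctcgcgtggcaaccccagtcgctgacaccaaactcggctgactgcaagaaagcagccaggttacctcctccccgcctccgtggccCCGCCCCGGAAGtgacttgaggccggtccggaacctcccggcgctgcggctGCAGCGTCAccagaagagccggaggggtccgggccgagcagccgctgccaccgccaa

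By the nearest region, 4 of 8 alpha ring genes were in cluster 4. Psma1, Psma2, Psma3 and Psma4 each had a cluster 4 region nearest to a limit, with widths of 1066, 835, 2200 and 970 bp. Psma5 had a cluster 2 region of 884 bp, and Psma7 a cluster 8 region of 1639 bp. Psma6 differed, with a narrow cluster 9 region of 499 bp over its start and further regions of cluster 6 (981 bp) and cluster 7 (400 bp). The widest of these, at Psma3 (chr12:70967999-70970198), lay at the outer limit of a gene model (70969283) that reaches further than the start in the promoter table (70974623). That inner start was covered by another cluster 4 region, of 1324 bp (chr12:70974290-70975613), beyond the 2.5 kb window. Psma8, a testis variant of an alpha subunit, had the narrowest alpha ring region as judged by the widest of each gene, a cluster 1 region of 530 bp (chr18:14706007-14706536). In all, 5 of 8 alpha ring genes had a region of cluster 2, 3 or 4 (62.5%, 24.5 to 91.5), against 36.0% of 15229 other genes with a region.

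Of the 7 beta ring genes, only Psmb3 had a region of clusters 2, 3 or 4 (14.3%, 0.361 to 57.9), a cluster 3 region of 1399 bp. The intervals of both rings overlap and hold the 36.0% of other genes. Overlap of separate intervals does not settle whether the rings differ, and their difference was not tested. Psmb2, Psmb4 and Psmb6 had cluster 8 regions nearest, of 753, 628 and 1192 bp. Psmb5, which encodes the subunit with chymotrypsin-like activity that the drug bortezomib inhibits, had a cluster 1 region of 725 bp. Psmb1 and Psmb7 had cluster 6 regions, and they mark the extremes of width in the ring by the nearest region of each gene. That of Psmb1 was 2516 bp wide (chr17:15497835-15500350) and was shared with Tbp, which encodes the TATA-binding protein. That of Psmb7 was 560 bp wide (chr2:38643694-38644253). The 3 genes of the standard catalytic subunits, Psmb5, Psmb6 and Psmb7, were thus in 3 clusters by their nearest region.

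The core subunits that replace others in particular tissues had small regions or regions away from the start, with Psmb9 as the exception. Psmb11, the thymus subunit, had the narrowest widest region of all members, a cluster 9 region of 344 bp (chr14:54625190-54625533). Psmb8, Psmb9 and Psmb10 encode the catalytic subunits of the immunoproteasome, which interferon induces. The cluster 1 region of Psmb8 (607 bp) had its midpoint 502 bp upstream of the start and did not cover it. The cluster 8 region of Psmb10 (945 bp) lay inside the gene, with its midpoint 1257 bp downstream of the start, and was shared with Lcat. Psmb9 had a cluster 4 region of 1212 bp over its start (chr17:34187116-34188327). It was shared with Tap1, a peptide transporter gene of antigen presentation, whose start lies 226 bp away on the other strand.

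Of the 6 base ATPase genes, 5 had a region of clusters 2, 3 or 4 (83.3%, 35.9 to 99.6), an interval that just holds the 36.0% of other genes. Psmc2, Psmc5 and Psmc6 had cluster 3 regions of 828, 1301 and 1289 bp nearest to a limit, Psmc3 a cluster 4 region of 725 bp and Psmc4 a cluster 2 region of 818 bp (chr7:28049783-28050600). Psmc1 was the exception, with a cluster 8 region of 867 bp. The widest region at an ATPase gene was not the nearest: Psmc3 also had a cluster 1 region of 1358 bp (chr2:91060762-91062119) beyond the opposite limit, shared with Slc39a13. The remaining base genes had no region of clusters 2, 3 or 4 (0 of 3, interval up to 70.8%). Psmd1, the largest scaffold of the base, had a cluster 6 region of 2441 bp (chr1:86062595-86065035), Psmd2, another scaffold, a cluster 8 region of 784 bp, and Psmd4, a ubiquitin receptor, the only cluster 5 region among the members, 717 bp wide (chr3:95042276-95042992).

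Of the 8 lid genes, 5 had a region of clusters 2, 3 or 4 (62.5%, 24.5 to 91.5), an interval that holds the 36.0% of other genes. Psmd8 (762 bp) and Psmd12 (1061 bp) were in cluster 2, Psmd7 (1291 bp) and Psmd13 (1011 bp) in cluster 3, and Psmd11 (1133 bp) in cluster 4, by the region nearest to a limit. Psmd3, Psmd6 and Psmd14, of which Psmd14 encodes the deubiquitinase of the lid, were in cluster 8. Among these 3, Psmd3 had the widest region of all members, 2858 bp (chr11:98680489-98683346), Psmd14 one of 1788 bp, and Psmd6 the narrowest nearest region of the lid, 696 bp (chr14:14120473-14121168). Psmd5, Psmd9 and Psmd10 encode chaperones that help to assemble the base and leave it afterwards. They were in clusters 3, 1 and 8, with 1994 bp (chr2:34869741-34871734), 521 bp (chr5:123227934-123228454) and 736 bp. Psmd10 is the only member on the X chromosome.

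Of the activators, Psme1 and Psme2 encode partners in 1 ring that interferon induces and lie close together on chromosome 14. By the nearest region they differed in cluster and width, with a cluster 8 region of 598 bp at Psme1 (chr14:55578120-55578717) and a cluster 2 region of 1542 bp at Psme2. Psme2 also had a further region of cluster 8, 714 bp wide, on its end side. Psme3, which encodes the nuclear relative of these subunits, had a cluster 4 region of 1129 bp, and Psme4, a large activator known from testis, a cluster 8 region of 1632 bp (chr11:30771315-30772946). Psmc3ip and Psme3ip1 had regions of cluster 3 (911 bp) and cluster 4 (1792 bp).

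**Figure D1:**
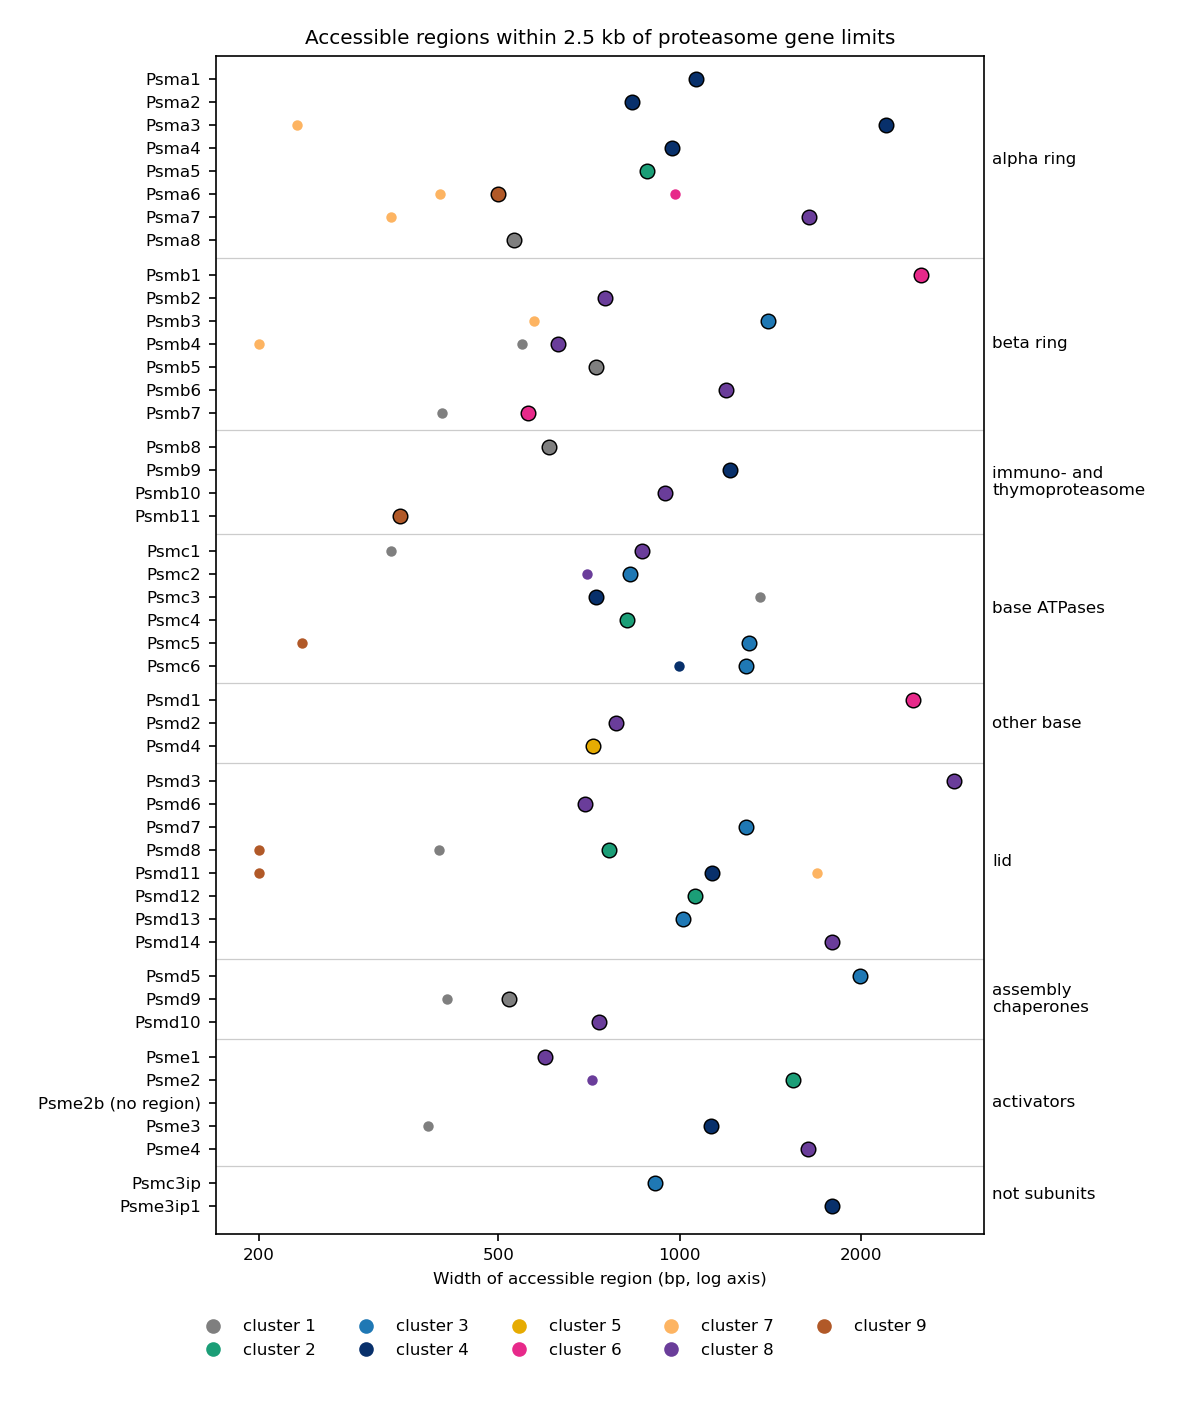
Width in bp (log axis) of each accessible region within 2.5 kb of a limit of each of the 46 members, grouped by role, with 1 point per region, coloured by cluster. Large outlined points mark the region nearest to a limit; these run from 344 bp at Psmb11 to 2858 bp at Psmd3, and the smaller points of further regions are mostly narrower and of clusters 1, 7 and 9.

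Counted over members with a region, any region of clusters 2, 3 or 4 was found at 22 of 45 (48.9%, exact binomial 95% interval 33.7 to 64.2), against 36.0% of 15229 other genes with a region. The other genes' share lies inside that interval. By single cluster, 10 members had a cluster 4 region against 13.6% of other genes, 8 a cluster 3 region against 14.2%, and 5 a cluster 2 region against 9.22%. Cluster 8 was found at 15 members against 25.5% of other genes. Cluster 1 was found at 10 members against 27.3%, cluster 9 at 5 against 17.9%, cluster 7 at 6 against 10.5%, cluster 6 at 4 against 10.2% and cluster 5 at 1 against 5.52%.

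The region nearest to a limit and the further ones had different mixes of clusters. Nearest regions were of cluster 8 at 13 members (28.9%, 16.4 to 44.3), against 21.6% of other genes, and of clusters 2, 3 or 4 at 22 (48.9%, 33.7 to 64.2), against 33.2%. For the nearest region the other genes' share thus lies just below the interval. This rests on counting Psmc3ip and Psme3ip1, which are no subunits. Without them it was 20 of 43 (46.5%, 31.2 to 62.3), and the other genes' share lies inside that interval. The nearest region was of cluster 1 at 4 members (8.89%, 2.48 to 21.2), against 20.0% of other genes. No member had cluster 7 nearest (0 of 45, interval up to 7.87%), against 5.15% of other genes. The 20 further regions, at 16 members, were of cluster 1 in 7 cases, cluster 7 in 6, cluster 9 in 3, cluster 8 in 2 and clusters 4 and 6 in 1 each. Their median width was 402 bp, against 945 bp for the 45 nearest regions, and 13 of them lay on the end side of the gene. Having 2 or more regions was about as frequent as elsewhere, at 35.6% of members against 34.2% of other genes, and regions of 2 or more clusters were found at 15 members (33.3%) against 30.3%.

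The share of core and of regulatory genes with a region of clusters 2, 3 or 4 did not differ beyond counting error. Such a region was found at 7 of 19 core genes (36.8%, exact binomial 95% interval 16.3 to 61.6) and 13 of 24 regulatory genes with a region (54.2%, 32.8 to 74.4). The difference of core minus regulatory was -17.3 percentage points, with a Newcombe 95% interval of -42.5 to 11.9. Cluster 3 was at 1 core gene, Psmb3, and at 6 regulatory genes (difference -19.7 points, -40.1 to 3.60). Cluster 7 was at 5 core genes and 1 regulatory gene, Psmd11 (difference 22.1 points, 0.494 to 44.9), and in each of these it was a further region. It was the only cluster of 9 whose interval left out 0, with no allowance for having looked at 9.

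**Figure D2:**
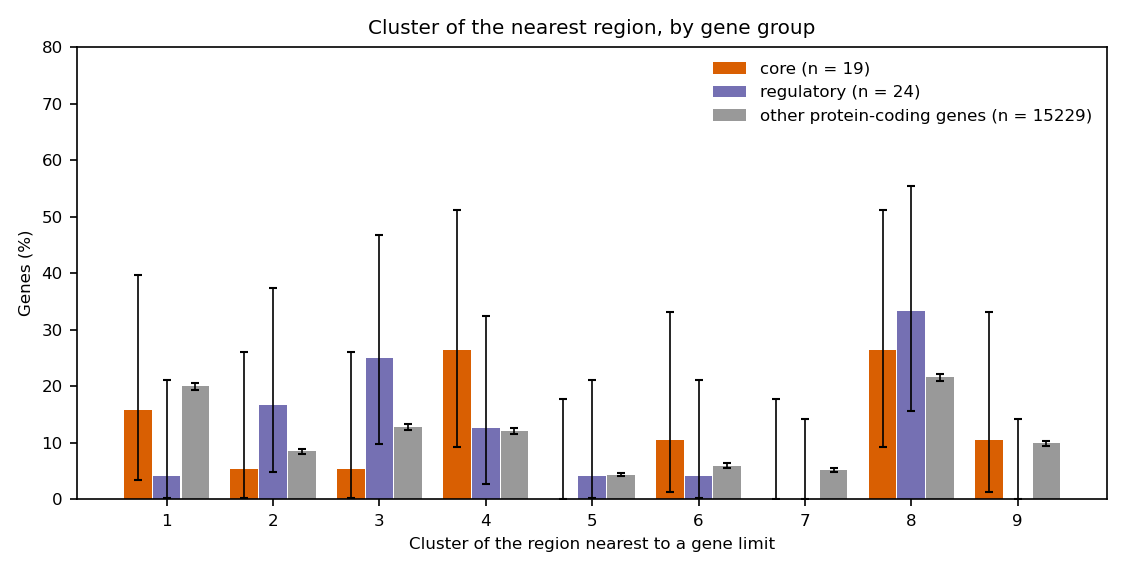
Share of genes (%) by the cluster of the region nearest to a gene limit, for 19 core genes, 24 regulatory genes and 15229 other protein-coding genes with a region; whiskers are exact binomial 95% intervals. Cluster 4 holds 26.3% of core and 12.5% of regulatory genes, cluster 3 holds 5.26% of core genes and 6 of 24 regulatory genes, and the whiskers of both groups overlap in every cluster.

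Region widths at proteasome genes overlapped widely with those at other genes. The widest region per gene had a median of 981 bp in the 45 members (quartiles 753 and 1399 bp), against 1163 bp in other genes (773 and 1747 bp). With each region counted once, the median was 818 bp at members and 931 bp at other genes. Core genes had a median of 945 bp and regulatory genes of 1095 bp for the widest region, with overlapping ranges of 344 to 2516 bp in core and 521 to 2858 bp in regulatory genes. Within clusters, the 15 member regions of cluster 8 had a median of 784 bp, against 1019 bp for the 3379 cluster 8 regions at other genes (quartiles 735 and 1461 bp), and the 10 of cluster 4 a median of 1097.5 bp, against 1347 bp. In cluster 3 the 8 member regions had 1290 bp, against 1269 bp. The 5 of cluster 2 had 884 bp, against 1258 bp, and the 11 of cluster 1 had 521 bp, against 806 bp. The 4 of cluster 6 went the other way, with 1711 bp against 850 bp. Medians were 366 against 378 bp in cluster 7 and 236 against 325 bp in cluster 9. Cluster 5 had 1 member region, of 717 bp, against 891 bp. The nearest region had its midpoint a median of 158 bp from a limit in members and 251 bp in other genes.

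**Figure D3:**
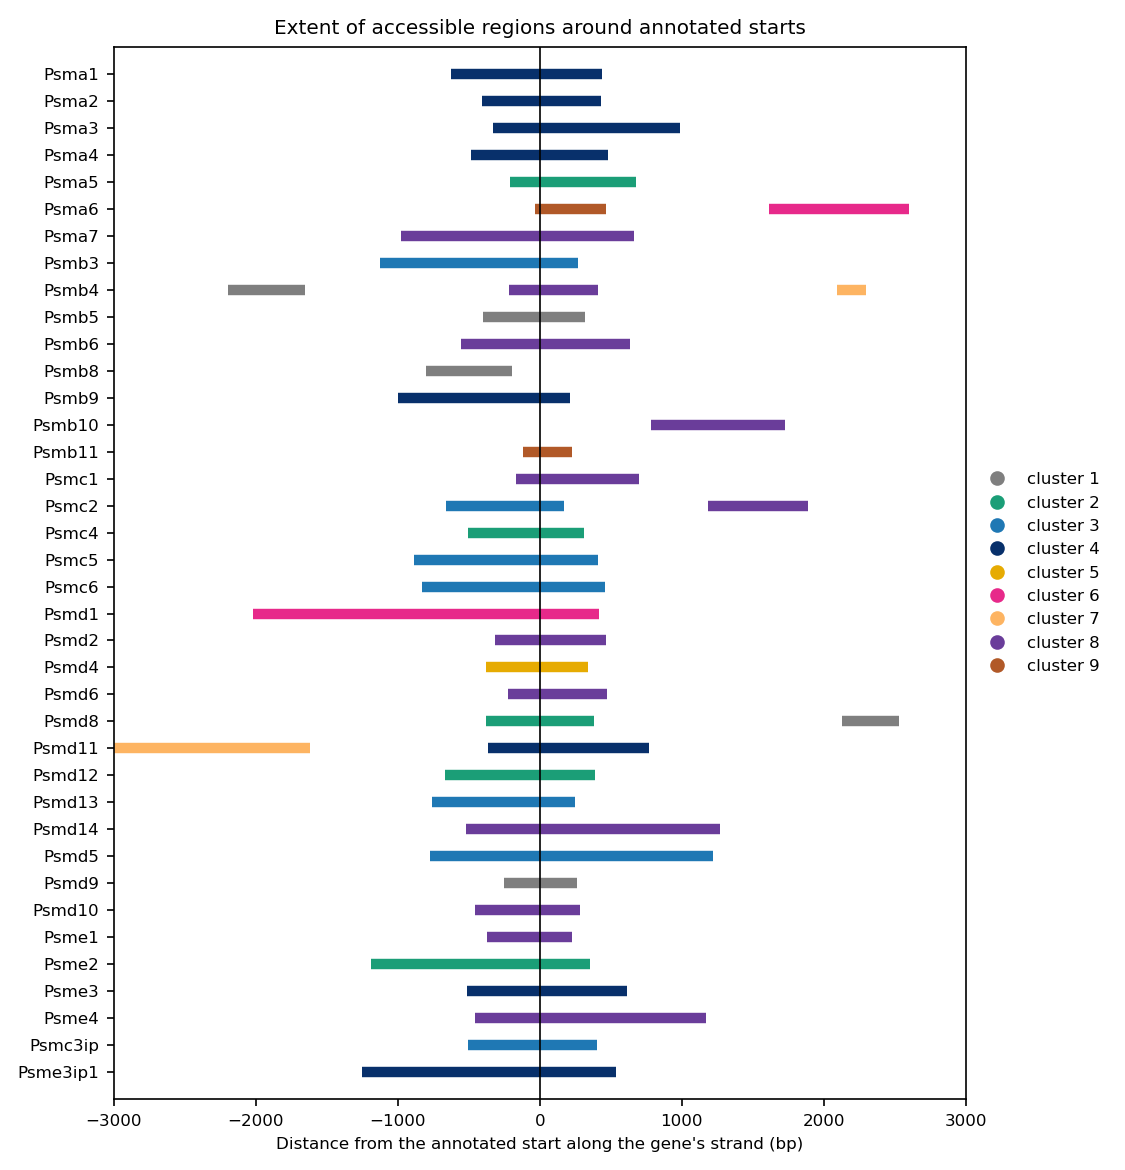
Extent in bp of accessible regions around the annotated start (vertical line) of 38 members with a promoter entry and a region, drawn along the strand of each gene and coloured by cluster. Regions of 36 members span the start; at Psmb8 the region ends upstream of it and at Psmb10 it begins downstream, and the region at Psmd11 at the left edge runs on beyond the axis.

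Several proteasome genes share their region with a neighbour, so that its cluster cannot be given to the proteasome gene alone. At 23 of 45 members (51.1%, 35.8 to 66.3) a region was also within 2.5 kb of a limit of another protein-coding gene, against 35.6% of other genes. Psmc3ip and Psme3ip1, which are no subunits, are among the 23. The share was 10 of 19 core genes (52.6%, 28.9 to 75.6) and 11 of 24 regulatory genes (45.8%, 25.6 to 67.2), and both intervals hold that of other genes. In at least 7 of the 23 members the starts of both genes lay on opposite strands within 1 kb of each other and pointed apart. These pairs were Psma7 with Ss18l1 (19 bp between starts), Psmd13 with Sirt3 (85 bp), Psmc5 with Ftsj3 (101 bp), Psma2 with the mitochondrial ribosomal gene Mrpl32 (205 bp), Psme3ip1 with Rspry1 (215 bp), Psmb9 with Tap1 (226 bp) and Psme2 with Rnf31 (641 bp). Their shared regions were of cluster 2, 3, 4 or 8. Another 4 pairs that share a region, among them Psmb1 with Tbp, could not be classed, since the strand of 1 gene was not at hand. A divergent start within 1 kb, with or without a shared region, was found at 8 of 39 members with a promoter entry (20.5%, 9.30 to 36.5) and at 8.45% of 17453 other genes. Psme3ip1 is among these 8.

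In the promoter sequences, with matches counted on either strand, the core and regulatory genes differed most in the ETS motif. Entries were at hand for 15 core and 22 regulatory genes. CCGGAAG was found in 0 of 15 core promoters (exact binomial 95% interval up to 21.8%) and in 11 of 22 regulatory promoters (50.0%, 28.2 to 71.8), against 12.0% of 17453 promoters of other genes and 17.8% of the 10893 of these that a region overlaps. The difference of core minus regulatory was -50.0 points (Newcombe 95% interval -69.3 to -21.9), chosen as the largest of 7 motifs after the values were seen. Counted on the strand of the gene alone, CCGGAAG was in 0 of 15 core and 6 of 22 regulatory promoters, a difference of -27.3 points (-48.2 to -2.47), and GGGCGG then differed more. On that strand CCGGAAG was in 6.51% of all other promoters and 9.81% of those under a region. The regulatory genes with a match were Psmc1, Psmc2, Psmc6, Psmd2, Psmd4, Psmd6, Psmd11, Psmd12, Psmd13, Psme3 and Psme4. Their 12 matches began between 125 bases before and 2 bases after the start, with a median of 36.5 bases before it. In the sequences above, the match is seen shortly before the start of Psmd12, while in Psmc6 it is followed directly by a GGGCGG match. Among core and regulatory genes, starts under a region were of clusters 2, 3 or 4 at 6 of 11 with the match. Without the match it was 12 of 23. Psmc3ip and Psme3ip1 are not counted here. Both had the match, with starts under regions of clusters 3 and 4.

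The other 6 motifs differed less between core and regulatory promoters when matches on either strand were counted. SP1's GGGCGG was in 6 of 15 core and 16 of 22 regulatory promoters (difference -32.7 points, -57.4 to -0.725), against 47.3% of all other promoters and 69.1% of those under a region. On the strand of the gene alone it was in 3 of 15 core and 11 of 22 regulatory promoters, a difference of -30.0 points whose interval holds 0 (-53.2 to 1.72). Counted so, GGGCGG was in 31.5% of all other promoters and 46.5% of those under a region. CCAAT was in 8 of 15 core and 6 of 22 regulatory promoters, against 39.0%. The antioxidant response element was in 6 of the 37 core and regulatory promoters (16.2%, 6.19 to 32.0), against 13.1% of all other promoters and 14.6% of those under a region. It was found at Psmb5, Psmb6, Psmc6, Psmd9, Psmd12 and Psme4. In Psmb5, Psmb6, Psmd9 and Psme4 it began 47, 9, 31 and 7 bases before the start, and in Psmc6 and Psmd12 it began 227 and 247 bases before it. The motif of nuclear respiratory factor 1 was in 6 of these 37 promoters (16.2%), against 6.64% of all other promoters and 10.4% of those under a region. TATAAA was in 4 (10.8%), which is below the 13.0% of all other promoters and above the 6.07% of those under a region. It began 78 and 76 bases before the start in Psmb4, 237 in Psmb8, 122 in Psmd1 and 182 in Psmd6. Whether any of these acts as a TATA box was not tested. The YY1 motif was in 1, Psmb6, against 0.986% of all other promoters and 1.55% of those under a region. Matches of different motifs overlapped in Psmd9 (the antioxidant response element and GGGCGG) and in Psme4 (CCGGAAG and GGGCGG). A match is a run of letters, and whether a factor binds there was not measured. The median GC content was 55.3% in core and 60.5% in regulatory promoters, against 62.0% in other promoters under a region.

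**Figure D4:**
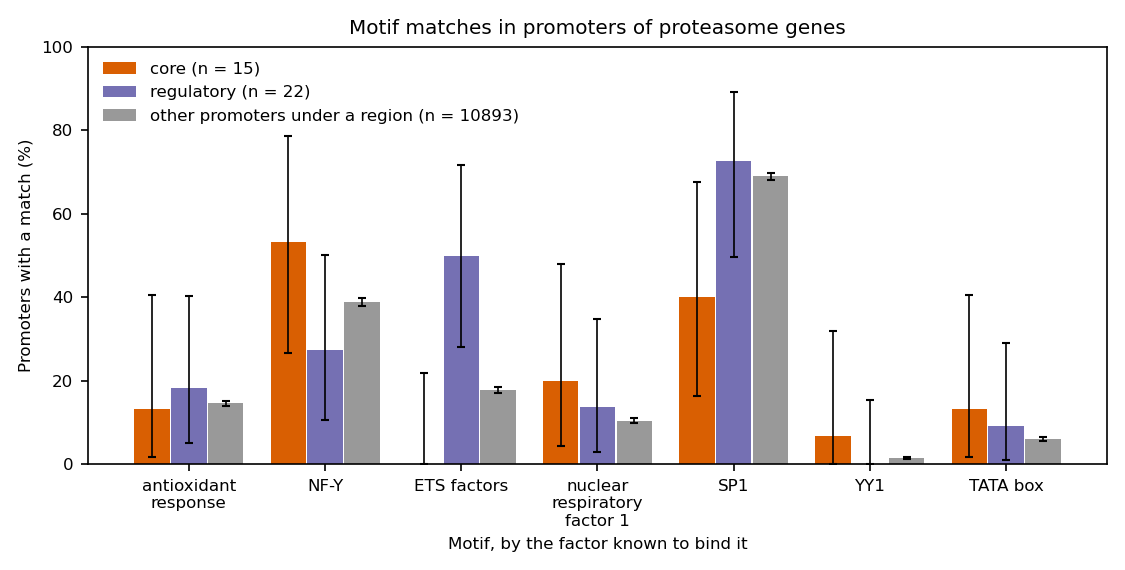
Share of promoters (%, 250 bases before to 50 after the start) with at least 1 match to each motif on either strand, for 15 core genes, 22 regulatory genes and 10893 promoters of other genes that a region overlaps; whiskers are exact binomial 95% intervals. The ETS motif stands at 0% of core and 50.0% of regulatory promoters, against 17.8% of the others.

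Genes of the proteasome pathway whose symbols fall outside the rule, such as assembly factors, ubiquitin shuttles and regulators, were looked at in the same way. Whether each encodes a part of the complex was not sorted out. Of 30 such genes, 28 had a region (93.3%), against 69.7% of the protein-coding genes other than the 46 members. Of these 28, 19 had one of cluster 2, 3 or 4 (67.9%, 47.6 to 84.1), against 36.0%. The assembly chaperones Psmg1, Psmg2, Psmg3 and Psmg4 were in clusters 3, 4, 8 and 4 by the nearest region, and Pomp, which matures the core particle, in cluster 8. Nfe2l1 and Nfe2l2, which encode the factors of the antioxidant response element, were in clusters 4 and 2, with wide regions of 2546 and 2172 bp. Psmf1, a proteasome inhibitor gene, and Ecpas, a proteasome adaptor gene, had no region at their outer limits. Both had a region over a start that lies further inside, of cluster 8 (662 bp) at Psmf1 and of cluster 1 (1384 bp) at Ecpas.

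Other families of household genes had shares in clusters 2, 3 or 4 whose intervals overlapped that of the members (48.9%). The families were taken by symbol alone, so genes that share a prefix but encode other proteins can be counted too. For ribosomal proteins the prefix was Rpl or Rps and a digit. The share was 57.6% of 92 Rpl and Rps genes with a region (exact binomial 95% interval 46.9 to 67.9). It was 52.6% of 78 mitochondrial ribosomal protein genes (40.9 to 64.0) and 59.6% of 47 genes with Nduf symbols, named for the respiratory chain (44.3 to 73.6). The COP9 signalosome and the initiation factor Eif3, whose subunits are related to those of the lid, had it at 3 of 9 and 5 of 13 genes, and the Cct chaperonin at 6 of 9. The median of the widest region per gene was 981 bp at members, against 1845.5 bp at Rpl and Rps genes. It was close to the medians of mitochondrial ribosomal protein genes (945 bp) and Nduf genes (965 bp). The ETS motif CCGGAAG was in 0 of the 15 core promoters at hand, with an interval up to 21.8%. It was in 25 of 75 Rpl and Rps, 26 of 69 mitochondrial ribosomal protein, 6 of 42 Nduf, 4 of 8 COP9 signalosome, 5 of 10 Eif3 and 2 of 8 Cct promoters. The pathway genes outside the rule had it in 6 of 24. All promoters of genes other than the members had it in 12.0%, and those under a region in 17.8%. The Nduf share (14.3%) lies between these.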

How the data were processed

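Per the submitters' processing notes, the tools behind the 6 libraries were SAMtools 1.6, Picard, cutadapt 1.18 and Bowtie2 2.3.3.1, with the mm10 build. For the calling, merging and clustering of regions, no tool or setting is given in the sources used here. The table that the authors deposited holds other values than expression: positions and a cluster name, with starts counted from 0 (counted from 1 here). It has no signal per library, so the planned fits between groups could not be run and the depth per library is unknown.

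Gene limits came from RefSeq genes on GRCm38.p6, and starts, strands and sequences from a RefSeq promoter table of that assembly, which has 39 of the 46 members. The table's sequences follow the gene's strand: TATAAA shortly before the start was more frequent forward than reversed on either strand (349 against 124 promoters of the plus strand, 353 against 118 of the minus strand). For genes with several entries, the entry whose start a region covers was used.

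Widths are end minus start as deposited. Shares carry exact binomial 95% intervals and differences Newcombe intervals. The pairing of genes with regions and the motif search were tested on simulated data. All members were named, with coordinates for the widest and narrowest of each role, and of the pathway list the first members and those with no region. Nfe2l1 and Nfe2l2 were also named after their values were seen. The members, lists and the grouping of clusters 2, 3 and 4 were chosen with earlier results of these data known. Psme3ip1 was set apart from the regulatory genes after its name was seen in the gene table. Python 3.11.15, numpy 2.4.6, pandas 2.3.3, SciPy 1.17.1, statsmodels 0.14.6 and matplotlib 3.10.9 were used.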

Additional observations from a re-analysis of the deposited data

How the results depend on the processing

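No paired analysis was possible because the table holds no value per library, and fits without replicate 1 or replicate 2 could not be run for the same reason. The number of members with a region was between 38 and 45 in all alternatives, with 39 of 46 at 500 bp and 38 of 39 by the annotated start only. That with a region of cluster 2, 3 or 4 was between 20 and 23, out of a changing number with a region. It was 22 of 39 at 500 bp, 21 of 38 by the annotated start only and 20 of 45 with the widest region only. The share of other genes was 39.3, 37.9 and 33.6% under these 3 settings. The windows decide how many further regions enter. Members with a cluster 1 region (10) numbered 4 of 39 at 500 bp, 5 of 44 at 1 kb and 16 of 45 at 5 kb. They numbered 4 of 45 with the nearest region only and 5 of 38 by the annotated start only. In the same order, the share of other genes was 18.8, 21.6, 35.4, 20.0 and 20.7%. Members with a cluster 7 region (6) numbered 1, 1, 11, 0 and 2, against 4.14, 5.69, 18.6, 5.15 and 6.15% of other genes. Those with a cluster 9 region (5) numbered 2, 2, 10, 2 and 2, against 8.14, 10.4, 28.7, 9.85 and 10.5%. Cluster 6 (4 members) was at 1 with 500 bp and 2 by the start only, against 4.65 and 7.26% of other genes. Cluster 5 was at 2 with 5 kb, against 7.13%. Members sharing a region numbered 15 at 1 kb, and those with regions of 2 or more clusters 2 at 1 kb and 30 at 5 kb. The median width of the widest region in core minus regulatory genes was -150 bp and became -239 bp at 5 kb. GGGCGG was found in 37.8% of 37 core and regulatory promoters on the given strand only, against 59.5% on either strand. In other promoters under a region these shares were 46.5% and 69.1%. The share of cluster 2, 3 or 4 in core minus regulatory genes lay between -20.9 and -8.99 points in all alternatives run. Leaving out or adding Psmc3ip and Psme3ip1 together was chosen after seeing the data.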

Other observations

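Of 6 annotated pseudogenes of proteasome subunits, 1 had a region within 2.5 kb of a limit, against 13.3% of 10622 pseudogenes.

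Among other genes whose start a region covers, 51.0% of 1932 promoters with CCGGAAG were in clusters 2, 3 or 4 (exact binomial 95% interval 48.7 to 53.2), against 37.9% of 8772 without it (36.9 to 38.9). The same values for the core and regulatory proteasome genes, without Psmc3ip and Psme3ip1, were 54.5% of 11 (23.4 to 83.3) and 52.2% of 23 (30.6 to 73.2).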
